A study of Mus musculus with 8 samples.

Results

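The mouse genes Alb, Afp, Afm and Gc, 4 members of the albumin family, were followed in a map of RNA polymerase II (Pol II) and its chromatin contacts in adult liver. They encode albumin, alpha-fetoprotein, afamin and the vitamin D-binding protein, and were chosen by name among 21883 protein-coding genes. All lie on chromosome 5 of build GRCm38. Alb spans 90460870 to 90476602 (15.7 kb), Afp 90490714 to 90508907 (18.2 kb) and Afm 90518949 to 90553544 (34.6 kb). These 3 are transcribed in the same direction, on the forward strand, and make up a cluster of 92.7 kb. Gc lies apart from them, at 89417511 to 89457898 (40.4 kb), on the reverse strand.

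The assay was ChIA-PET, in which crosslinked chromatin is pulled down with an antibody, DNA ends held in 1 complex are joined through a linker, and a short tag is read on each side. Such a pair of tags is a PET, and each of its ends marks DNA recovered in the pull-down, which can include background DNA. The livers came from wild-type C57BL/6 mice of 3 to 6 months, kept in a cycle of 12 h of light and 12 h of dark with free access to food, and chromatin of 3 to 7 livers was combined for each pull-down with the Pol II antibody 8WG16. Experiment 1 had 4 libraries, 2 from ZT06 (midday) and 2 from ZT18 (midnight), and experiments 2 and 3 had 1 library at each of these times. Experiments 1 and 3 were crosslinked with 1.5 mM EGS and 1% formaldehyde, and experiment 2 with 1% formaldehyde alone. The deposited table marks each PET with its experiment and not with its library or time. Each value below therefore pools day and night, and midnight was not compared with midday. No gene was altered and no group was treated, so the comparisons are between the genes and between the 3 experiments.

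The albumin family arose from a common ancestral gene, and its proteins are made by hepatocytes and secreted into plasma as carriers. Albumin carries fatty acids and holds the osmotic pressure of plasma. Alpha-fetoprotein is its counterpart in the foetus, and Afp is silenced in the liver after birth, with the repressors Zbtb20 and Zhx2 taking part. Afamin carries vitamin E, and the vitamin D-binding protein carries vitamin D metabolites and removes actin released from damaged cells. C/EBP factors and the clock output factor Dbp are known to act on the Alb promoter.

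The sequences below are the bases before the annotated start of each gene (RefSeq, GRCm38.p6, written 5′ to 3′ on the strand of the gene). They are shown because the promoter of Alb differs from the others in a motif searched here, and the genes differ widely in Pol II. Capitals mark matches to the motifs searched.
Alb (chr5:90460620-90460869, forward strand): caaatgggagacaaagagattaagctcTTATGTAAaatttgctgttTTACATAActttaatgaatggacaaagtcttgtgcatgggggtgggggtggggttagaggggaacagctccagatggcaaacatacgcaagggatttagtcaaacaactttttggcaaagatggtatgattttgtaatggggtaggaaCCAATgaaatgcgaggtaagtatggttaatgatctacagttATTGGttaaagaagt
Afp (chr5:90490464-90490713, forward strand): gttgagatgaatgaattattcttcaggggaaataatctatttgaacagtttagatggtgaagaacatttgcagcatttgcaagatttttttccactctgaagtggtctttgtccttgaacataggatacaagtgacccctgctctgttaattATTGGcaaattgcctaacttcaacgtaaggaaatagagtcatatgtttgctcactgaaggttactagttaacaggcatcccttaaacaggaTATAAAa
Afm (chr5:90518699-90518948, forward strand): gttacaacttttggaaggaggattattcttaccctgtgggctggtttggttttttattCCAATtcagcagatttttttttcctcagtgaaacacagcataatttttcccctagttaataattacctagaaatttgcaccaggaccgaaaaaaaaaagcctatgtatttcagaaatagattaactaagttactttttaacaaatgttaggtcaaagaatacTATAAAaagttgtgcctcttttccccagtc
Gc (chr5:89457899-89458148, reverse strand): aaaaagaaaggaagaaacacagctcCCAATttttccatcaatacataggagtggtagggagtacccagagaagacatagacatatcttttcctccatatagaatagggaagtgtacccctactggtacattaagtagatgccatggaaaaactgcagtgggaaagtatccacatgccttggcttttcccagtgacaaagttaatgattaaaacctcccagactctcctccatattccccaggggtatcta

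Motifs were searched on both strands in entries of 250 bases before to 50 bases after the start, and compared with all 32817 promoter entries of the same length. TTANGTAA, which fits the D-box bound by Dbp and its relatives and also C/EBP sites, was found in Alb alone of the 4 members. Alb held 2 matches, with their first bases 223 and 204 bases before the start, against a share of 2.32% of all promoters with at least 1 match. D-box or C/EBP sites that depart from these letters were not searched and are not marked. Whether the 2 matches are the sites through which Dbp or C/EBP factors act on Alb was not tested.

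TATAAA was found in Afp, 7 bases before the start, and in Afm, 30 bases before it, and in 13.6% of all promoters. All distances are from the annotated starts, and how close these lie to the actual starts of transcription was not tested. Forms of the TATA box with other letters were not searched. CCAAT was found in all 4 members, at 56 and 15 bases before the start in Alb, 98 in Afp, 192 in Afm and 225 in Gc, but 37.4% of all promoters hold it. The match in Afp, like the second in Alb, is on the opposite strand. TNTTTAC, a FOXA form present in 12.4% of all promoters, was found in no member. A match is a description of the letters and not evidence of binding.

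For the 3 experiments the table held 474478, 1438866 and 840210 PETs. A kilobase of the nuclear genome received on average 0.357, 1.08 and 0.630 PET ends in these experiments. Density below is the number of ends over a gene and 2.5 kb on either side, per base, divided by that mean, so 1 is the nuclear mean. Intervals are exact 95% Poisson intervals and cover counting error only, and the 2 ends of a PET are not independent. The experiments differed in their short PETs: 22.5% of the nuclear PETs of experiment 1 joined ends of 1 chromosome at most 8 kb apart, against 6.23% in experiment 2 and 14.8% in experiment 3. Each experiment's values are therefore given separately. PETs between chromosomes made up 73.1%, 88.7% and 80.2% of the nuclear PETs of experiments 1, 2 and 3. What part of the ends is background was not tested.

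The tissue was checked on marker genes. Of 6 hepatocyte markers, 6, 4 and 5 were at least 2-fold above the nuclear mean in experiments 1, 2 and 3, against 27.0%, 6.03% and 24.1% of all genes, with median densities of 36.2, 3.73 and 8.43. A further 16 markers were of Kupffer, endothelial, stellate and bile duct cells. Of these, 1 (Sox9) was at least 2-fold above the nuclear mean in all 3 experiments, near the 5.01% of all genes. In no experiment were 12 of the 16 so, but the share of all genes that passed in none was not counted. The medians of the 16 were 1.05, 1.26 and 1.48, near the medians of 1.19, 1.17 and 1.39 over all protein-coding genes. In whole liver, fewer cells with Pol II on a gene and less Pol II per cell cannot be told apart.

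Alb carried one of the highest densities of Pol II PET ends in the liver genome, Gc was intermediate and varied between experiments, Afp was close to the nuclear mean, and Afm was close to it in experiments 2 and 3 and above it in experiment 1. The foetal gene Afp, which starts 14.1 kb past the end of Alb, had 68 ends in all 3 experiments together, against 1166 for Alb.

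Alb had 761, 203 and 202 ends in experiments 1, 2 and 3. Its density was 103 (interval 95.8 to 111), 9.05 (7.85 to 10.4) and 15.5 (13.4 to 17.8) times the nuclear mean. It held rank 3, 20 and 16 among the 21883 genes. Pck1, which encodes a gluconeogenic enzyme, ranked first in experiment 1, at 105. The 3 intervals did not overlap, and the highest density was 11.4 times the lowest.

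Gc had 174, 59 and 111 ends, with densities of 10.8 (9.21 to 12.5), 1.20 (0.915 to 1.55) and 3.88 (3.19 to 4.68). It was well above the nuclear mean in both experiments with EGS, and its interval included the mean in experiment 2. Its ranks were 524, 10099 and 1016, so that in experiment 2 it stood near the middle of all genes. Crosslinking and experiment cannot be told apart for that difference, since experiment 2 was the only one without EGS.

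Afp had 7, 41 and 20 ends, with densities of 0.846 (0.340 to 1.74), 1.63 (1.17 to 2.22) and 1.37 (0.836 to 2.11). Its interval included the nuclear mean in experiments 1 and 3 and lay above it in experiment 2. Among all genes it stood at percentile 29.5, 87.0 and 49.1. Its value was highest in experiment 2, but the 3 intervals overlapped, so its densities could not be ordered over the experiments.

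Afm had 33, 35 and 23 ends, with densities of 2.34 (1.61 to 3.28), 0.817 (0.569 to 1.14) and 0.922 (0.585 to 1.38). It was above the nuclear mean in experiment 1, and in the other two its interval included the mean. It stood at percentile 77.3, 21.4 and 24.6.

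At least 2-fold density was reached by 3 of the 4 genes in experiment 1 (Alb, Gc, Afm), against 27.0% of all protein-coding genes. In experiment 2 it was reached by 1 of 4 (Alb), against 6.03% of all genes, and in experiment 3 by 2 of 4 (Alb, Gc), against 24.1%. Alb alone passed in all 3 experiments, as 5.01% of all genes did.

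**Figure D1:**
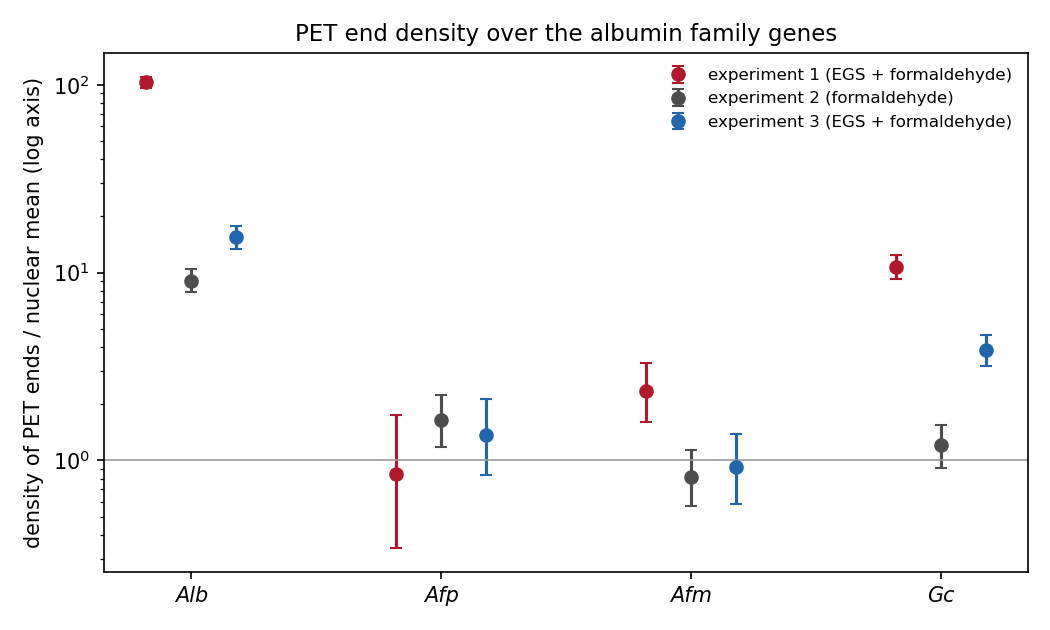
Density of PET ends over each gene and 2.5 kb on either side, relative to the nuclear mean (log axis, grey line at 1), for the 3 experiments, with exact 95% Poisson intervals that cover counting error only. Alb lies at 103, 9.05 and 15.5, while Afp and Afm stay between 0.817 and 2.34.

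Alb exceeded Afp in each experiment. In the order of the experiments, the ratio of their densities was 122 (exact binomial 95% interval 58.7 to 304), 5.54 (3.94 to 7.95) and 11.3 (7.12 to 18.9). The mean log2 ratio was 4.30 ± 2.33 (SD, n = 3 experiments), and the two-sided exact sign-flip permutation test gave p = 0.25, the smallest that 3 experiments allow. Experiment 1 lay far above the others, and the mean log2 ratio without experiment 1 was 2.98.

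Alb also exceeded Afm, by 44.0, 11.1 and 16.8 times (mean log2 ratio 4.33 ± 1.02, SD, n = 3). It exceeded Gc by 9.57, 7.53 and 3.98 times (mean log2 ratio 2.72 ± 0.65, SD, n = 3). Over the experiments this last ratio varied least of the 3.

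The ratio of Gc to Afm was 4.60 (3.16 to 6.89), 1.47 (0.952 to 2.30) and 4.21 (2.67 to 6.91). Gc over Afp was 12.7 (6.04 to 32.1), 0.735 (0.485 to 1.12) and 2.84 (1.75 to 4.82). Gc was thus above both low genes in the experiments with EGS and could not be ordered against either in experiment 2. Afm and Afp could not be ordered over the experiments: Afm over Afp was 2.76 (1.20 to 7.40), 0.500 (0.309 to 0.805) and 0.674 (0.354 to 1.29).

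The mean log2 density over the 3 experiments was 4.61 ± 1.84 for Alb, 1.88 ± 1.58 for Gc, 0.31 ± 0.49 for Afp and 0.27 ± 0.83 for Afm (SD, n = 3). Without experiment 1 the means were 3.57 for Alb, 1.11 for Gc, 0.58 for Afp and -0.20 for Afm. The order of Alb, Gc, Afp and Afm was the same, and that of Afp and Afm lay within their spread.

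Pol II was not spread evenly along Alb. The first kilobase from the annotated start held 119, 48 and 33 ends. The kilobase before the start held 21, 8 and 9. The signal thus rose sharply at the start of the gene in all 3 experiments, and in each it was highest over the first 4 kb.

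Over the first 4 kb the density was 238, 26.6 and 32.2 times the nuclear mean (339, 115 and 81 ends). Between 4 and 12 kb it was 73.3, 6.36 and 14.3, and from 12 kb to the annotated end 75.1, 3.47 and 8.08. From the start to the midpoint of the gene lay 71.9% (interval 68.3 to 75.3), 79.3% (72.8 to 85.0) and 72.7% (65.4 to 79.2) of its ends, by the exact Clopper-Pearson method. Every window of the gene was above the nuclear mean in experiments 1 and 2, and 15 of 16 were in experiment 3. The exception, 12 to 13 kb from the start, held 0 ends there and was also the lowest in experiment 1 with 5 ends, and held 2 in experiment 2.

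Signal continued past the annotated end of Alb. The 2.5 kb after it held 91, 11 and 19 ends, or 102 (82.2 to 125), 4.07 (2.03 to 7.28) and 12.1 (7.27 to 18.8) times the nuclear mean. In experiment 1 the window starting 16 kb from the start, which lies just past the annotated end, held 64 ends, and that starting 13 kb from it held 65. These were higher than all windows between 4 and 13 kb in that experiment. In experiment 2 the same windows held 5 and 8 ends, and in experiment 3 they held 8 and 12.

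The 300 bases around the start of Alb, whose upstream bases are printed above, held 22, 11 and 10 ends. Those of Afp held 0 in each experiment, where the nuclear mean would give 0.107, 0.324 and 0.189 ends, so a low density there was not detectable at this depth. The same stretch held 1, 3 and 0 ends in Afm and 1, 0 and 2 in Gc. At the Alb promoter the density was 206 (129 to 311), 33.9 (16.9 to 60.7) and 52.9 (25.4 to 97.3).

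In Gc the profile differed between experiments. Its first kilobase held 11, 6 and 8 ends, and the first 11 kb held 126, 29 and 33. These are densities of 32.1, 2.44 and 4.76. Between 11 and 24 kb the densities were 3.02, 0.925 and 4.28, with 14, 13 and 35 ends. In experiments 1 and 2 the signal was thus concentrated in the first 11 kb, while in experiment 3 it stayed level. From 24 to 30 kb (89427899 to 89433898) no experiment had an end, where the nuclear mean would give 12.4 over the 3 together, and beyond 30 kb ends were found again (21, 11 and 29). The bounds of these stretches were set after seeing the profile.

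**Figure D2:**
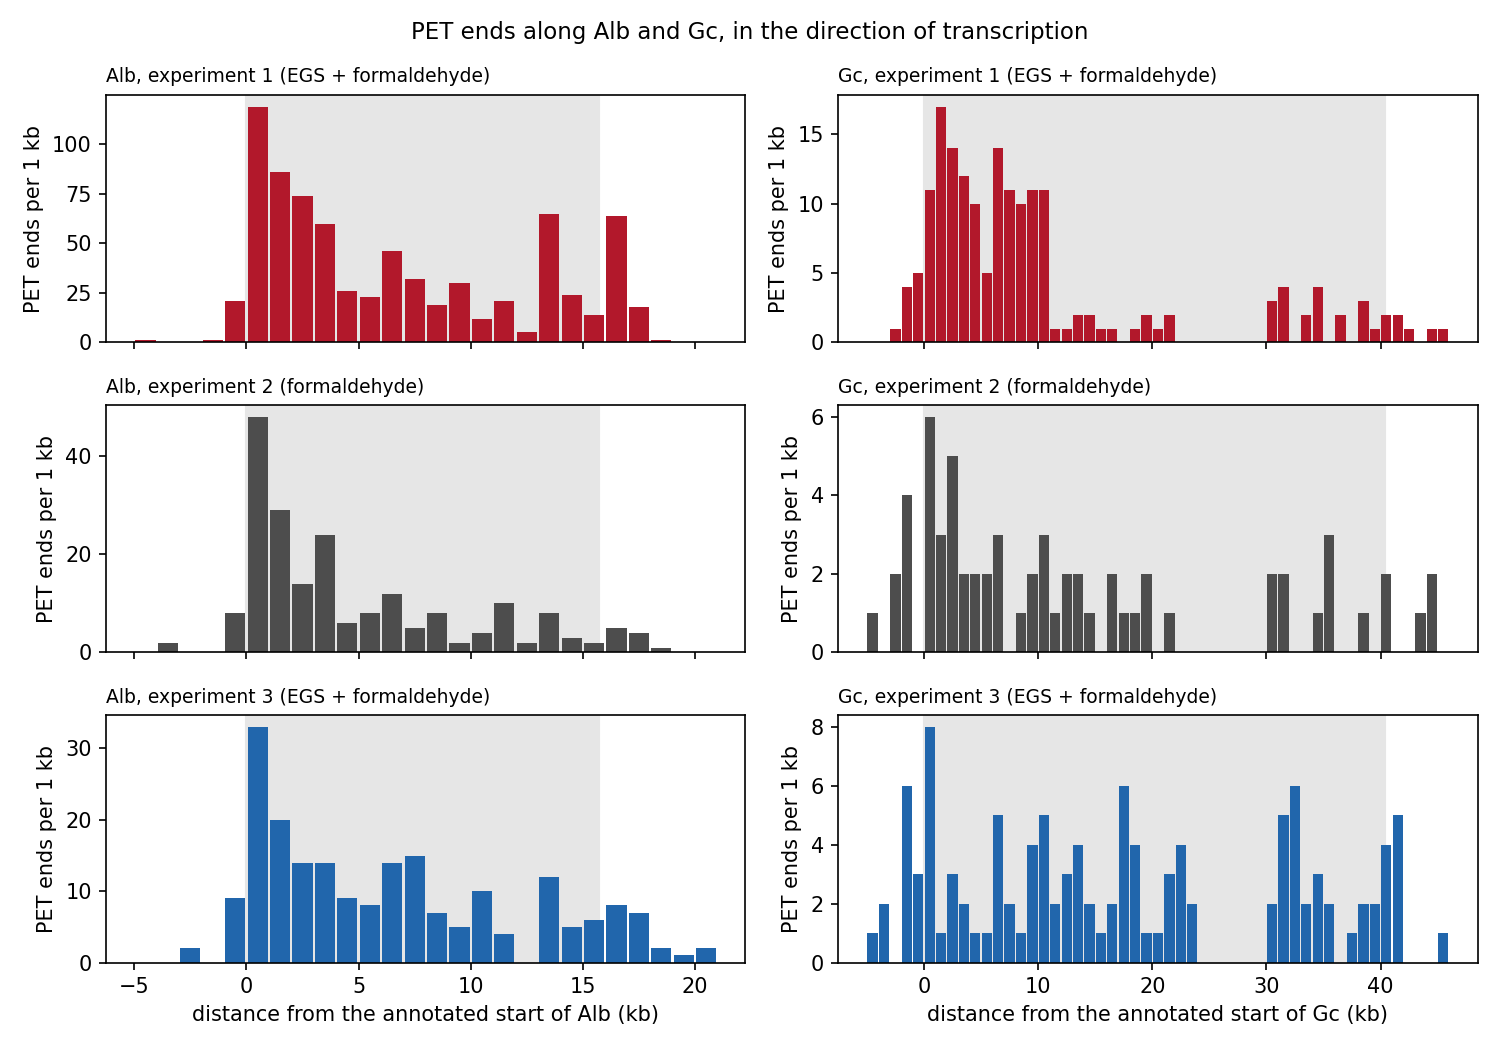
PET ends per 1 kb window along Alb (left) and Gc (right), by distance from the annotated start in the direction of transcription, for the 3 experiments, with the annotated gene shaded. The first window of Alb holds 119, 48 and 33 ends and is its highest in every experiment, and Gc has no end from 24 to 30 kb.

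Afp showed no such rise at its start. Its first 4 kb held 1, 6 and 5 ends, and the 2.5 kb before the start held 1, 6 and 0. The densest window by the sum over experiments was its first, but with 6 ends in all. Afm had a higher start in experiment 1, where its first 8 kb held 18 ends at a density of 6.31 (3.74 to 9.97), against 12 ends and a density of 1.27 (0.654 to 2.21) over the rest of the gene. That rest includes the stretch of 10 kb with no end described below, which lowers its density. The bound of 8 kb was not among the planned windows. In experiments 2 and 3 the first 8 kb held 8 and 8 ends, at 0.925 (0.399 to 1.82) and 1.59 (0.686 to 3.13). The densest window of Afm, with 10 ends over the 3 experiments, was also its first.

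Like Gc, Afm had a stretch with no end in any experiment, 10 kb long from 14 to 24 kb past its start (90532949 to 90542948). The nuclear mean would give 20.7 ends there over the 3 experiments. Whether reads can be placed in these 2 empty stretches was not tested, and they lower the densities of Gc and Afm over the whole gene.

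Across the cluster and 100 kb on either side (293 windows of 1 kb), the 3 experiments had 971, 538 and 481 ends. Those over the span of Alb and 2.5 kb on either side were 78.4%, 37.7% and 42.0% of them. Windows with no end numbered 174, 95 and 127. Alb therefore held most of the ends of the region in experiment 1, and fewer than all other places together in experiments 2 and 3.

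The rise was bounded closely on the side of Afp. From 2.5 kb past the end of Alb to 2.5 kb before Afp, a gap of 9.11 kb, there were 0, 4 and 10 ends. In experiment 1, the density went from 102 in the 2.5 kb after Alb to 0 in this gap, with an upper limit of 1.14. Between 2.5 kb past Alb and the start of Albfm1, 80 windows held at most 6, 6 and 4 ends each. The gap between Afp and Afm held 9, 17 and 12 ends.

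Before Alb the signal was also low. From 5 to 1 kb before its start there were 2, 2 and 2 ends, and from 10 to 5 kb 1, 7 and 3. Between 15 and 10 kb before it, there were 9, 8 and 7 ends, at densities of 5.05 (2.31 to 9.58), 1.48 (0.639 to 2.92) and 2.22 (0.894 to 4.58). Only the interval of experiment 1 lay above the nuclear mean there. Over the 77.2 kb between Ankrd17 and that stretch the density was 0.654, 0.959 and 0.988.

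The next dense places of the region were near the starts of other genes. The window 95 kb before Alb, in the first kilobases of Ankrd17, an ankyrin repeat gene read away from the cluster, held 14, 11 and 16 ends. The window over the annotated start of Ankrd17 itself held only 2, 1 and 1. The dense window ends just before the start of Gm9958, a long noncoding RNA gene on the forward strand (90366997 to 90368488). With flanks Gm9958 had densities of 9.94, 2.85 and 5.63. Which of these 2 genes the ends belong to was not tested. The window 100 kb past the start of Alb, at the start of Albfm1, held 11, 8 and 9. Albfm1 belongs to the albumin family by its name and lies beyond Afm, at 90560626 to 90598127 on the forward strand.

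Its first 2 kb had densities of 29.4 (18.2 to 45.0), 5.09 (2.54 to 9.10) and 9.53 (4.92 to 16.6). Over its first 4 kb they were 16.1 (10.2 to 24.2), 3.47 (1.94 to 5.72) and 6.35 (3.63 to 10.3), against 7.01 (3.36 to 12.9), 1.39 (0.509 to 3.02) and 1.59 (0.433 to 4.07) over the first 4 kb of Afm, and these intervals overlapped in each experiment. Over its whole span with flanks Albfm1 had 4.29, 1.15 and 2.95. Rassf6, the last gene of the region, had 2.04, 1.37 and 1.64, and Ankrd17 as a whole 1.28, 1.22 and 1.63. Albfm1 was thus above its neighbours Afm and Rassf6 in the experiments with EGS. Its RefSeq promoter entry, whose start lies inside this span, holds TATAAA 23 bases before that start.

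**Figure D3:**
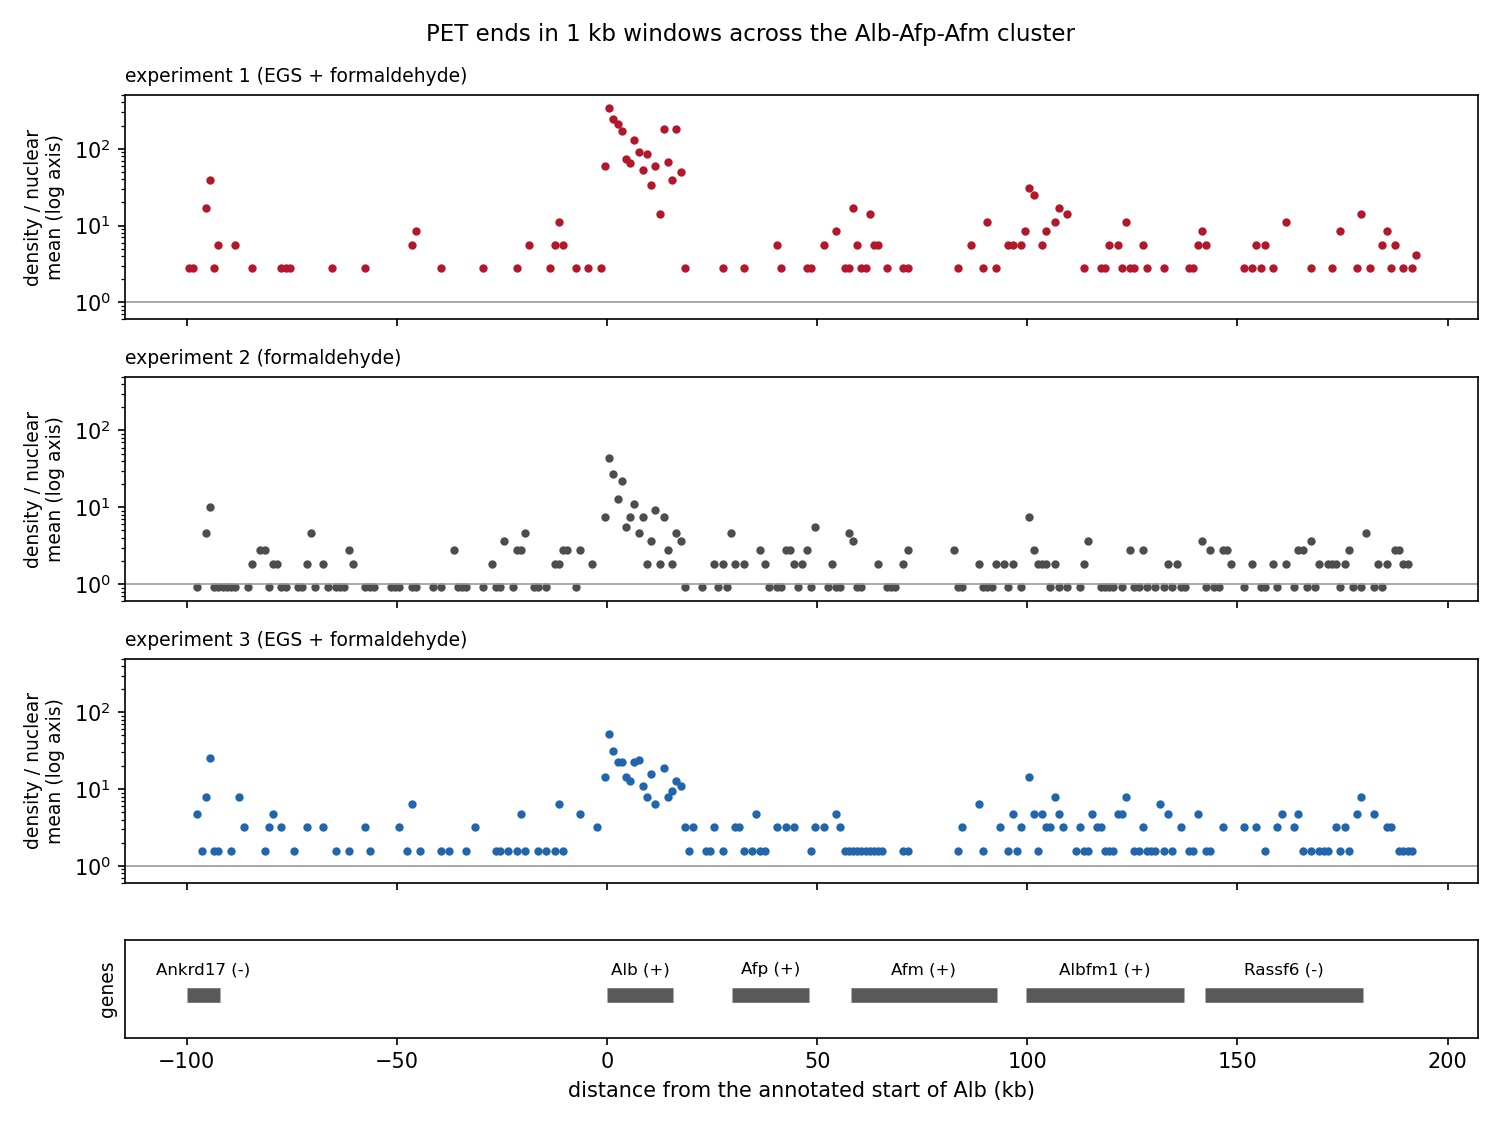
Density of PET ends in 1 kb windows over the Alb, Afp and Afm cluster and 100 kb on either side, relative to the nuclear mean (log axis, line at 1), by distance from the start of Alb, with the protein-coding genes below. Windows with 0 ends (174, 95 and 127 of 293) are not drawn, and each row of points at the bottom is 1 end. The peak over Alb stops before Afp in every experiment.

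The density of Alb did not come from 1 class of PET. Of its ends, 46.3% (42.7 to 49.9), 23.6% (17.98 to 30.1) and 27.7% (21.7 to 34.4) were in PETs at most 8 kb long, against 22.5%, 6.23% and 14.8% of all nuclear ends. With only these short PETs, compared with their own nuclear mean, Alb had densities of 211, 34.4 and 29.1. With only PETs between chromosomes it had 70.7, 7.19 and 12.5. Alb was thus high in both classes and higher in the short one.

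Gc had 18.1, 3.27 and 7.59 with short PETs only, and 8.37, 1.08 and 3.18 with PETs between chromosomes only. Its short share was 37.9%, 16.9% and 28.8%. Afp had 0, 2.56 and 0.928 with short PETs only, resting on 0, 4 and 2 ends. The linker sequence divides each experiment in 2, and over these 6 subsets Alb ranged from 7.98 to 114, Gc from 1.14 to 12.8, Afm from 0.337 to 2.77 and Afp from 0.819 to 1.74. Within an experiment the 2 values for Alb were 95.3 and 114, 7.98 and 12.7, and 14.6 and 16.4.

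The distance between the ends of short PETs in Alb had a median of 193, 245 and 346 bp, against 230, 376 and 230 bp in all short PETs. The 761 ends of experiment 1 fell on 681 different positions, and the 203 and 202 of the others on 198 and 198.

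Few PETs joined separate places in the cluster. Of PETs over 2 kb with both ends in the region, there were 7, split 4, 1 and 2 over the experiments in order. Of these, 3 had both ends inside Alb, 1 in each experiment. They joined 90463429 to 90467396 (3.97 kb, experiment 1), 90460922 to 90463362 (2.44 kb, experiment 2) and 90464260 to 90466833 (2.57 kb, experiment 3).

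The longest joined 90463483, 2.61 kb into Alb, to 90477218, 0.616 kb past its end, over 13.7 kb in experiment 1. It was the only PET between the 5′ part of Alb and the stretch after its end, and 1 PET is not a repeated contact. The other 3 lay inside Ankrd17 (2.40 kb), Afm (4.03 kb) and Albfm1 (7.63 kb).

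No PET joined 2 of the 4 genes, for any of their 6 pairs. A count of 0 allows up to 3 PETs in each pair (a one-sided 95% limit, unlike the two-sided intervals above), so a rare contact between Alb and Afp, Afm or Gc was not detectable at this depth. Low numbers of ends limit this most for Afp, with 68 ends in all.

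With 2.5 kb on either side, Alb held 4 PETs over 2 kb inside it, Gc 2, Afm 1 and Afp 0. At least 4 were found in 297 of the 21883 genes (1.36%). Hnf4a led that list with 14. Among the 10396 genes no longer than Alb, 3 had at least 4: Alb, the kinase gene Mknk2 and the nucleoside transporter gene Slc29a1. These counts were not adjusted for the number of ends over a gene, and a gene with more ends can hold more such PETs. Over the 3 experiments Alb had 1166 ends, Gc 344 and Afm 91. The 2 of Gc spanned 2.29 kb in experiment 1 and 10.2 kb in experiment 3.

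Apart from these, Alb had 1 contact within 1 Mb, of 765 kb to Adamts3 in experiment 3. Its 26, 12 and 15 PETs over 8 kb on chromosome 5 had median lengths of 38.4, 29.95 and 23.6 Mb. Its partners on other chromosomes numbered 382, 143 and 131. Of these, 47.4% (42.3 to 52.5), 52.4% (43.9 to 60.9) and 58.8% (49.8 to 67.3) lay over genes, against 51.7%, 47.7% and 53.0% of all ends in such PETs. These intervals include the shares over all PETs, so partners over genes were neither detectably more nor less frequent. Macrod2, a gene 1998 kb long, was the only partner gene with at least 3 PETs (3 PETs in 2 experiments).

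Of 13 genes for factors that act on the family, 8, 6 and 8 were at least 2-fold above the nuclear mean in experiments 1, 2 and 3, and 6 were so in all 3, against 27.0%, 6.03%, 24.1% and 5.01% of all genes. Their median densities were 11.3, 1.72 and 4.27, against 1.19, 1.17 and 1.39 over all genes. The highest were genes for activators of the C/EBP family, Cebpa at 68.3, 14.9 and 23.7 and Cebpb at 52.1, 13.0 and 17.8. Dbp, which binds D-boxes, had 42.7, 4.94 and 8.02. (In gene lists DBP is also an older name for Gc, a different gene.)

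The FOXA genes, pioneer factors of the liver, all passed in each experiment. Foxa1 had 13.3, 3.21 and 5.51, Foxa2 28.1, 4.68 and 6.29, and Foxa3 16.9, 3.88 and 7.29. Hnf4a, a nuclear receptor gene of hepatocytes, had 11.3, 1.72 and 4.27. It passed in the experiments with EGS only, as did Nr5a2 at 2.12, 1.09 and 2.17. Nfia and Nfib passed in none as averages over their whole spans, with 233, 763 and 564 ends and 128, 296 and 249 ends.

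Averaged over the whole span, the genes of the repressors of Afp had densities near those of the median gene (1.19, 1.17 and 1.39). Zbtb20 had 1.29, 1.11 and 1.48, Zhx2 1.20, 1.25 and 1.81, and Zfhx3, which also represses Afp, 0.987, 1.34 and 1.56. Of these 3, 2, 2 and 3 were above the median gene in the 3 experiments, and none reached 2-fold, against 27.0%, 6.03% and 24.1% of all genes. A rise confined to the start of a gene counts for less in such an average the longer the gene is. Despite its low density Zbtb20 had 352, 913 and 711 ends, against 186, 123 and 114 for Cebpa. Zhx2 had 64, 203 and 171, and Zfhx3 242, 996 and 677. The starts of these genes were not examined separately.

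Other genes that are high in foetal and low in adult liver were also near or under the nuclear mean. Of 6, none reached 2-fold in any experiment, against 27.0%, 6.03% and 24.1% of all genes. Their medians were 1.00, 1.35 and 1.24, against 1.19, 1.17 and 1.39 over all genes. The imprinted genes H19 and Igf2 had 1.10, 1.46 and 1.88 and 0.533, 1.45 and 1.74. Gpc3, a glypican gene also used as a marker of liver tumours, had 0.477, 0.691 and 0.564 and was the lowest of the list in all 3. Dlk1 had 1.77, 1.63 and 1.40. Afp, H19, Igf2, Gpc3 and Lin28b had their lowest values in experiment 1, on few ends in H19 and Igf2. For each of them the intervals of the experiments overlapped, so this order was not resolved. How many of all genes were lowest in experiment 1 was not counted.

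**Figure D4:**
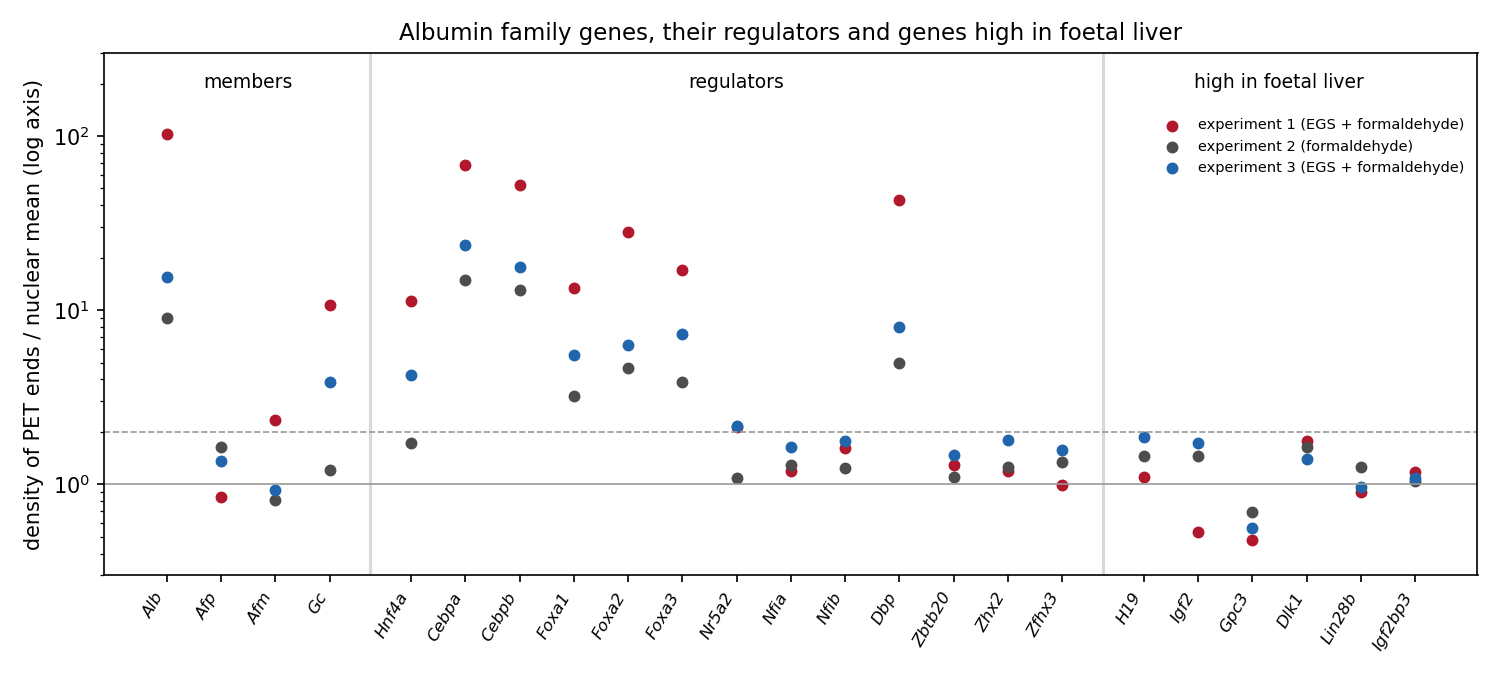
Density of PET ends relative to the nuclear mean (log axis, solid line at 1, dashed line at 2) for the 4 albumin family genes, 13 genes of factors that act on them and 6 genes high in foetal liver, with 1 point for each experiment. Alb stands with Cebpa and Cebpb, and Afp lies in the range of the foetal genes, all of which are under the dashed line.

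By the Euclidean distance of log2 density over the 3 experiments, among 13423 genes with at least 50 ends, the genes nearest to Alb were Apoa5, Id2, Errfi1, Ahsg and Fabp1, at distances of 0.43 to 0.52. Apoa5, an apolipoprotein gene, had 84.7, 10.7 and 18.1, and Ahsg, the gene of the plasma protein fetuin-A, 88.4, 10.5 and 11.8. Errfi1, an inhibitor of EGF receptor signalling, had 103, 11.6 and 19.8. Their high values in experiment 1 follow from this choice, since the same 3 densities were used to find them.

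Those nearest to Gc were Gatd1, Orm1, Tns2, Sord and Cps1, at distances of 0.10 to 0.26. Orm1, which encodes another plasma carrier protein, had 11.1, 1.29 and 3.87, and Cps1, the first enzyme of the urea cycle, 10.7, 1.42 and 4.13. Like Gc these genes were near the nuclear mean in experiment 2. Likeness here is over 3 values that share their libraries, and it was used to choose the genes, so it is a description.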

How the data were processed

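Pol II ChIA-PET was done on pooled livers in 3 experiments (8 libraries, 4 per time). The authors deposited 1 table with no header. From its values, a line holds a PET: its experiment, linker sequences, 2 end positions with their chromosomes, and a distance. Per the submitters' processing notes, the reads were handled with Bowtie2 and build mm10 (the assembly GRCm38). Filters and the removal of duplicates: not given in the sources used here. No column names a library or time.

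PET ends were counted with Python 3.11.15 (numpy 2.4.6, pandas 2.3.3, scipy 1.17.1) over spans of RefSeq genes on GRCm38.p6, each with 2.5 kb on either side. Counts per base were divided by the mean over the span of nuclear positions (2661305310 bp). All 4 members, 13 regulators, 6 foetal genes and 6 hepatocyte and 16 other markers matched the gene table by symbol. Counting was tested on simulated data. Pooled samples give a spread over 3 experiments, and where p-values are given they measure only this spread, which may be technical. The genes named are the members, the genes within 100 kb of the cluster, the lists, the 5 genes nearest to Alb and to Gc, and those that counts of 5 or fewer single out or that lead a list, which were chosen after their values were seen. The members and lists were chosen with earlier results of these data known. Alternatives changed the span, PET class, duplicates, reference, fold, window and distance, or left out an experiment. Some listed genes, a motif and a ranked gene are not reported here.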

Additional observations from a re-analysis of the deposited data

Results flagged for a closer look

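The order of Afm and Afp turned between experiments. The density of Afm was 2.76 times that of Afp in experiment 1 (33 against 7 ends) and 0.500 times in experiment 2 (35 against 41 ends), and neither 95% interval included 1. The difference between the experiments was not tested. In experiment 1 the ends of Afm lay mostly in its first 8 kb (18 of the 30 in its span), and in experiment 2 they did not (8 of 27). Experiment 1 was crosslinked with EGS and experiment 2 was not, and experiment 3, also with EGS, gave 0.674 (0.354 to 1.29).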

How the results depend on the processing

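Of 63 alternative values for 11 results, 56 were classed as unchanged. For densities this meant a move of less than the spread between experiments, a wide margin with 3 experiments. Counts of PETs and the share of genes had to stay within 1.5 times. The mean log2 ratio of Alb to Afp had only to stay positive, and the densest window only to overlap the main one. The mean log2 density of Afm turned from 0.27 to -0.20 without experiment 1, and that of Gc went from 1.88 to 1.11. With short PETs only, the mean log2 density was 5.90 for Alb (4.61 with all) and 2.94 for Gc. The 7 PETs over 2 kb in the region became 13, 3 and 1 with a minimum of 1, 4 and 8 kb, and 3 to 6 when an experiment was left out (3 without experiment 1). The share of genes at or above the fold in all experiments (5.01%) was 12.1%, 1.56% and 0.676% at 1.5, 3 and 4-fold. Leaving out 1 experiment gave a mean log2 density of Alb from 3.57 to 5.32 and a mean log2 ratio of Alb to Afp from 2.98 to 5.21. Short PETs alone gave no value for Afp, which had none in experiment 1. Collapsing PETs within 2 bp of each other removed 9343 PETs and left the 7. Leaving out experiments for single densities, and for the share of genes, was chosen after seeing the data. No paired analysis was possible because the table marks no library or time point, so samples of the groups could not be matched. The ratios of 2 genes within an experiment compare genes and not groups. Depth limits Afp and Afm most, with 7 to 41 ends per experiment.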
